A study of Mus musculus with 6 samples.

Results

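Apolipoproteins and the proteins that load lipid onto them were followed in whole mouse embryos cultured in a narrow or a wide cavity. The set was chosen by gene symbol: Apoa1, Apoa2, Apoa4, Apob, Apoc1, Apoc2, Apoe, Apom, Mttp and Soat2, each measured by an array feature that names this gene and no other. By this rule 8 of the 10 were found among 19938 genes. The feature for Apoc2 names a second gene, Gm44805, and is described apart. No feature in the annotation used here names Soat2, the enzyme that esterifies cholesterol for lipoproteins in liver and gut, so it was not analysed here.

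The series asked how external mechanical cues alter the embryo. Embryos of CD1, an outbred stock, were taken at embryonic day 5.0 and kept for 8 hours in cavities of 90 µm (narrow) or 180 µm (wide) diameter, with no other treatment in the labels. Each sample was total RNA of 30 pooled whole embryos on an Affymetrix Mouse Gene 1.0 ST array, with 3 biological replicates per cavity, named narrow 1 to 3 and wide 1 to 3. A p-value here therefore measures the spread between pools and not between embryos, and fewer cells of a type cannot be told apart from less RNA per cell.

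Lipoproteins are particles that carry triglyceride and cholesterol between tissues. Apob forms the scaffold of the large particles, and Mttp, the microsomal triglyceride transfer protein, loads lipid onto it in the endoplasmic reticulum. Smaller apolipoproteins such as Apoa1, Apoe and the Apoc proteins sit on the surface of the particles and steer lipases, lipid transfer and receptor uptake. Before a placenta or a liver exists, the visceral endoderm, an epithelium that covers the egg cylinder, makes these proteins and passes maternal lipid on to the embryo. Mice that lack Apob or Mttp die before birth.

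All 20 markers of visceral endoderm were measured, with mean signals from the 28.0th percentile of all genes, for Fga, to the 99.8th. The transthyretin gene Ttr, chosen after its values were seen, had log2 signals from 12.21 to 12.33. Array medians over all features lay between 7.62 and 7.67 on the log2 scale, and the array with the highest single value reached 14.31. The mean signals of the 8 members ranged from the 54.0th to the 99.8th percentile of all genes, although a signal depends on the probes as well as on the transcript, so genes were not ranked by amount. The arrays numbered 1 stood apart on the first principal component, at -10.6 for narrow 1 and -8.01 for wide 1 against 2.76 to 5.87 for the other 4. Values or calls without them are therefore given for members and for the 12 list genes named by smallest p. They are given where the sign, the call or the value (by over 1.5 times) changed. Apoc4, Apoa5 and Hnf4a, among others, are given over all 6 arrays only.

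Lipoprotein genes differed little between the cavities, with ratios of the group means from 0.970-fold to 1.08-fold. Of the 8 members, 0 passed the threshold of 0.05 for the adjusted p of limma, a linear model fitted to all 19938 genes with Benjamini-Hochberg adjustment, where 0% of all genes passed. At an unadjusted p under 0.05 there were also 0 of 8, beside 3.40% of all genes, 1.68% higher and 1.72% lower in narrow pools. The differences, narrow minus wide on the log2 scale, ran from -0.044 for Apoc1 to 0.11 for Apoa2, with 5 positive and 3 negative. Their median was 0.0034, beside 0.0011 over all genes. Narrow and wide pools overlapped for each of the 8 genes, while they did not overlap for 7.70% of all genes.

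**Figure D1:**
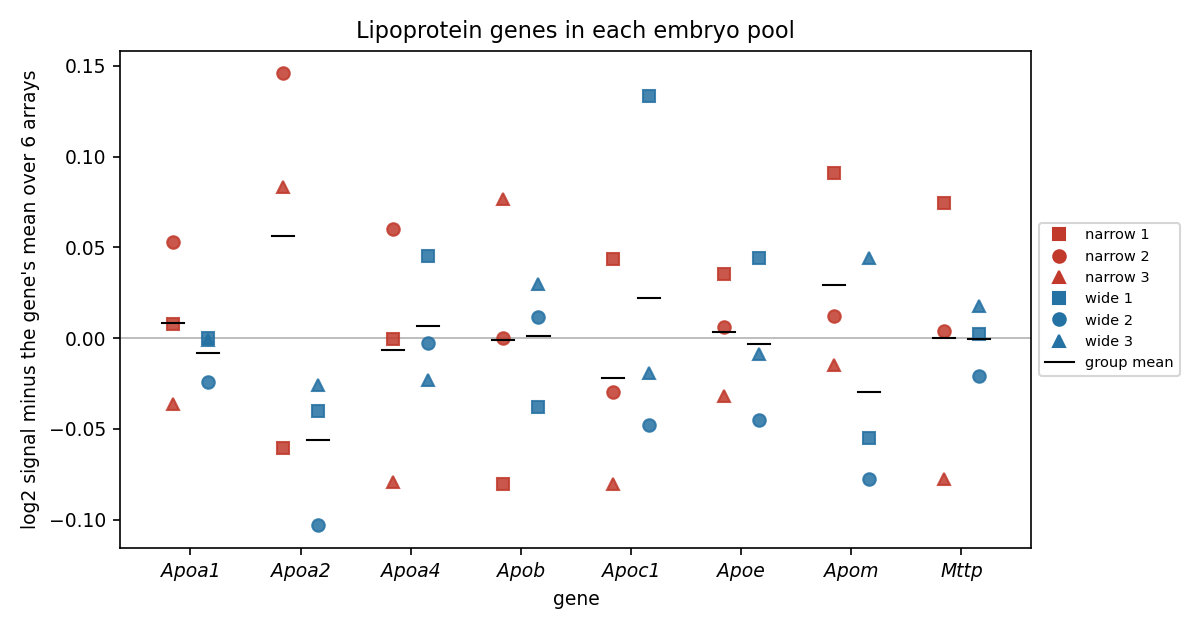
Log2 signal of each of the 8 genes in each pool, as the deviation from the gene's mean over the 6 arrays (y axis, log2 units); squares, circles and triangles are pools numbered 1, 2 and 3, red is narrow, blue is wide and black lines are group means. Red and blue points overlap for every gene, and the widest spread, 0.25, is that of Apoa2.

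Apob, the scaffold protein, had log2 signals of 12.56, 12.64 and 12.72 in narrow pools 1 to 3 and of 12.61, 12.66 and 12.67 in wide pools 1 to 3. The narrow pools held both the lowest and the highest value, with the wide pools between them. The difference was -0.0023 ± 0.051 (SE, n = 3 each), with a 95% interval from -0.12 to 0.11, and 0.018 in the arrays numbered 2 and 3. Mttp, its lipid loading partner, had 11.89, 11.82 and 11.74 in narrow and 11.82, 11.80 and 11.84 in wide pools. Again the narrow pools spanned the wide ones. The difference of Mttp was 0.00049 ± 0.049, and its interval, -0.11 to 0.11, corresponds to folds from 0.925 to 1.08. In the arrays numbered 2 and 3 it was -0.035.

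The sequence before the start of Apob is shown because Apob is the one structural protein of the large particles in this set. It is the 250 bases before a RefSeq transcript start in build GRCm38.p6, chr12:7977427-7977676, strand +, and capitals mark a TATA box, TATAAA.
Apob: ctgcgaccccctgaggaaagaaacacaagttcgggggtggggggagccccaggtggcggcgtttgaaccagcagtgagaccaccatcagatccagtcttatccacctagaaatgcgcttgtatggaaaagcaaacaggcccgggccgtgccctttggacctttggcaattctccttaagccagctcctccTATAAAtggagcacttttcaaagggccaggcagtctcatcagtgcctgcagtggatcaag
RefSeq windows were found for 8 of the 10 genes. Searched on both strands, TATAAA was present before a start of Apob, Apoa2 and Apoe, and in 12.4% of all 32851 windows of this length. The nuclear receptor half-site AGGTCA was found for Apoa2 and Apoc2 and in 14.0% of all windows. The HNF4 element CAAAGTCCA, the GATA site AGATAA and the GC box GGGCGG were in none of the 11 windows of these genes, and in 0.384%, 9.99% and 32.7% of all windows. These matches describe letters only.

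Among the genes of high density lipoprotein, Apoa1, its main protein, had 13.00, 13.04 and 12.95 in narrow pools and 12.99, 12.96 and 12.99 in wide pools. All 6 values lay within 0.089 of each other, and the difference was 0.016 ± 0.041 (95% interval -0.079 to 0.11). Apom, a lipocalin that carries sphingosine 1-phosphate on these particles, had 10.32, 10.24 and 10.21 in narrow and 10.17, 10.15 and 10.27 in wide pools. All narrow pools lay above wide 1 and wide 2, and wide 3 lay above narrow 2 and narrow 3. The difference of Apom was 0.059 ± 0.051 (95% interval -0.057 to 0.18), and 0.016 in the 4 arrays numbered 2 and 3. It ran from 0.028 without narrow 1 to 0.096 without wide 3.

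Apoa2, the second protein of high density lipoprotein, had the largest difference of the set. Its log2 signal was 8.30, 8.51 and 8.45 in narrow pools and 8.32, 8.26 and 8.34 in wide pools. Narrow 2 and narrow 3 lay above all wide pools, whereas narrow 1 lay among them. The difference over all 6 arrays was 0.11 ± 0.059, a 1.08-fold ratio with a 95% interval from 0.984 to 1.19 (limma adjusted p = 1.00). Without narrow 1 it was 0.17 ± 0.049 (95% interval 0.056 to 0.29, limma adjusted p = 0.954), and Apoa2 was then the 1 member at an unadjusted p under 0.05, as were 4.97% of all genes. In the arrays numbered 2 and 3 alone it was 0.18 ± 0.053 (95% interval 0.047 to 0.31, limma adjusted p = 0.974), with 4.58% of all genes at an unadjusted p under 0.05. Without narrow 2, in contrast, it was 0.068. Apoa2 did not pass the adjusted threshold in any of these fits.

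The bases before the start of Apoa2 are shown because it had this difference. The RefSeq table lists 2 windows for it, and the one printed is chr1:171224804-171225053, strand +, build GRCm38.p6, with TATAAA and the forkhead letters TGTTTAC in capitals. The AGGTCA match of Apoa2 lies in the window not printed, which lacks TATAAA and TGTTTAC.
Apoa2: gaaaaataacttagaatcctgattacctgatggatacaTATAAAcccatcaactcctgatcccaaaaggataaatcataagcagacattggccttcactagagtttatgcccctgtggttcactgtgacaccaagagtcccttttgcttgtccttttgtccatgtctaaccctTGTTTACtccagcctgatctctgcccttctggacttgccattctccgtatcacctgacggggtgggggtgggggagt
TGTTTAC, searched on both strands, was in 1 of the 11 windows of the set and in 3.17% of all windows.

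Apoa4, an apolipoprotein of chylomicrons and high density lipoprotein, had 12.28, 12.34 and 12.20 in narrow and 12.33, 12.28 and 12.26 in wide pools. The narrow pools again held both extremes. Its difference was -0.013 ± 0.049 (95% interval -0.13 to 0.099), and 0.0033 in the arrays numbered 2 and 3. Apoe, the ligand for receptors of the LDL receptor family, had 13.33, 13.30 and 13.26 in narrow and 13.34, 13.25 and 13.29 in wide pools. Its difference was 0.0064 ± 0.043 (95% interval -0.094 to 0.11), and 0.014 in the arrays numbered 2 and 3. Apoc1, which slows the uptake of remnant particles, had 10.54, 10.46 and 10.41 in narrow and 10.63, 10.44 and 10.47 in wide pools. Wide 1 was the highest pool for both Apoe and Apoc1. The difference of Apoc1 was -0.044 ± 0.060 (95% interval -0.18 to 0.094), 0.011 without wide 1 and -0.021 without both arrays numbered 1.

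**Figure D2:**
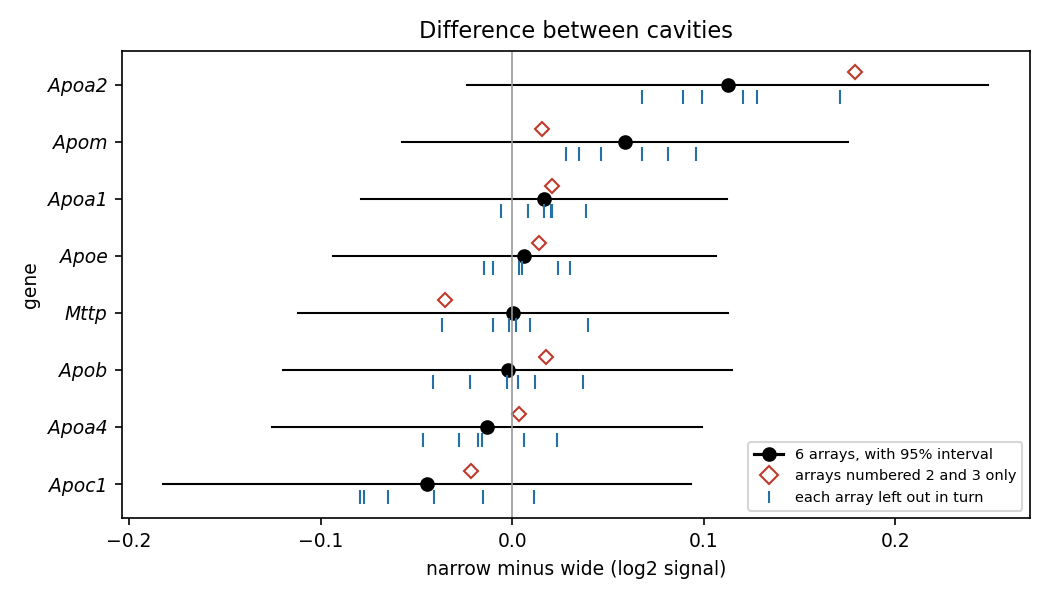
Difference between narrow and wide cavities for each gene (x axis, log2 signal) with its 95% interval over 6 arrays (black), in the 4 arrays numbered 2 and 3 (open red diamonds) and with each array left out in turn (blue ticks). Every black interval includes 0, and the red diamond of Apoa2, at 0.18, lies farthest from it.

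The intervals from the fit over all arrays hold for each gene alone, without adjustment for the number of genes, and for signal only. Across the 8 members the lowest bound was a fold of 0.881, for Apoc1, and the highest was 1.19, for Apoa2. For the 7 members other than Apoa2 the highest bound was 1.13, for Apom. These bounds are no ceiling, as they depend on the arrays used. On the log2 scale the upper bound of Apoa2 was 0.25 in this fit. It was 0.29 without narrow 1 and 0.31 in the arrays numbered 2 and 3. Standard errors ran from 0.041 to 0.060, beside a median of 0.053 over all genes and 0.049 over the genes above the 50th percentile of signal, to which all 8 belong. The median size of a difference, regardless of sign, was 0.015 among the members, 0.035 over all genes and 0.030 over those brighter genes. With the replicate number as a block, 0 of 8 passed at an unadjusted p under 0.05 and 7.25% of all genes did, and the smallest adjusted p of a member was 0.735, that of Apoa2.

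Same-numbered pools were taken as pairs, which no label states, and the direction differed from pair to pair. In pair 1 the narrow pool was higher for 3 of the 8 genes, in pair 2 for 7 and in pair 3 for 2. Over all genes the narrow pool was higher for 43.7%, 58.3% and 48.5%. Apob and Apoa2 were the 2 members higher in narrow 3, and Apob was the 1 member lower in narrow 2. None of the 8 members had the same sign in all 3 pairs, beside 28.7% of all genes that did. Narrow 3 held the lowest value of 4 members and wide 2 that of 3, whereas narrow 2 held the highest of 3. The mean deviation of the 8 genes from their 6-array means was 0.014, 0.032 and -0.020 in narrow 1 to 3 and 0.012, -0.039 and 0.0018 in wide 1 to 3, so both cavities spanned 0.

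Apoc2, the cofactor that activates lipoprotein lipase, shares its feature with Gm44805, which overlaps it in the RefSeq gene table. This feature had 12.04, 12.09 and 12.09 in narrow and 12.05, 11.85 and 12.01 in wide pools. Wide 2 was the lowest, and wide 1 lay above narrow 1. The difference was 0.099 ± 0.059 (95% interval -0.039 to 0.24, limma adjusted p = 1.00 in a fit over all 28853 features), and the signal cannot be assigned to either gene.

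Several members lie in groups in the genome, and of the members only Apoc1 and Apoe are direct neighbours. In the RefSeq gene table of GRCm38.p6 the order on chromosome 9 is Apoa1, Apoc3, Apoa4 and Apoa5, and on chromosome 7 it is Apoc2 with Gm44805, Apoc4, Apoc1, Apoe and Tomm40. Apoc3, which inhibits lipoprotein lipase and is no member, had 8.59, 8.61 and 8.69 in narrow and 8.33, 8.54 and 8.45 in wide pools, so all narrow pools lay above all wide pools, as for 4.17% of all genes. Its difference was 0.19 ± 0.062, a 1.14-fold ratio (95% interval 0.046 to 0.33, limma adjusted p = 1.00), and 0.15 in the arrays numbered 2 and 3. Its neighbours Apoa1 and Apoa4 had the differences of 0.016 and -0.013 given above, and Apoa5 had -0.032 ± 0.076. The difference between Apoc3 and its neighbours was not tested, and the intervals of Apoa1 and Apoc3 overlap between 0.046 and 0.11. In the chromosome 7 group Apoc4 had -0.0045 ± 0.063 and Tomm40, a mitochondrial import channel, 0.011 ± 0.044. Clptm1, next to Apoc2, had 0.018 ± 0.038. Beside the remaining members, Trmt10a next to Mttp had -0.097 ± 0.058. Tomm40l next to Apoa2 had -0.051 ± 0.041 and Fcer1g on its other side -0.050 ± 0.099. Bag6 next to Apom had -0.0017 ± 0.040 and D17H6S53E on its other side -0.0022 ± 0.056. Beside Soat2, Igfbp6 had -0.015 ± 0.039 and Csad -0.045 ± 0.052.

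**Figure D3:**
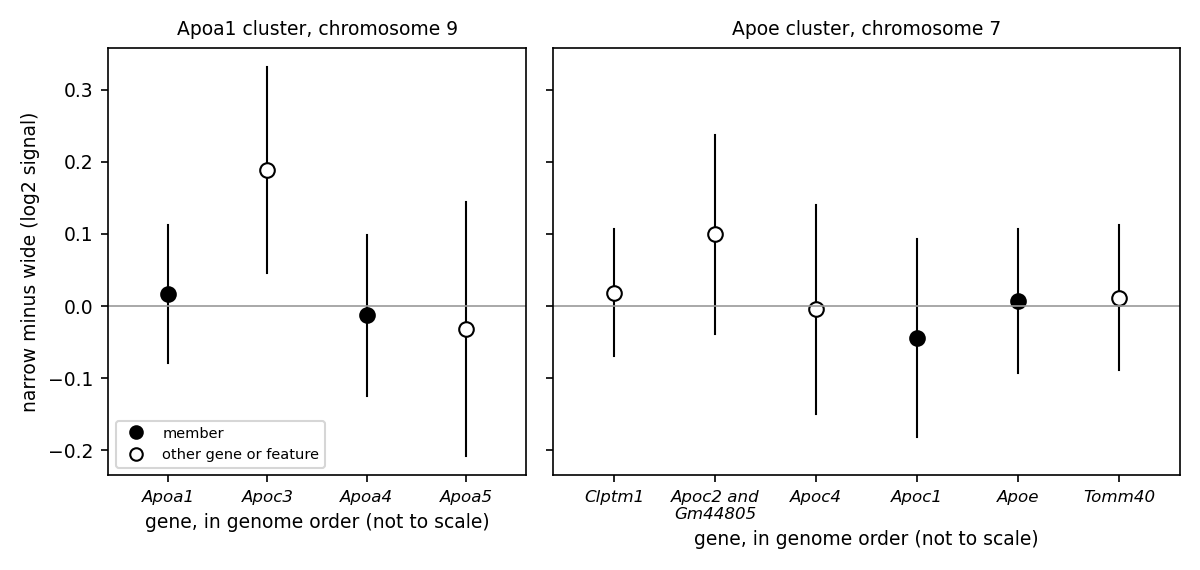
Difference between narrow and wide cavities (y axis, log2 signal, with 95% intervals) for genes of the Apoa1 group on chromosome 9 and the Apoe group on chromosome 7, in genome order and not to scale; filled points are members, open points are other genes or the feature shared by Apoc2 and Gm44805. Apoc3, at 0.19, has the one interval that leaves out 0.

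Other genes of the pathway were read from lists. Of 11 measured apolipoproteins outside the set, 0 passed the adjusted threshold. At an unadjusted p under 0.05, 1 was higher in narrow pools, namely Apoc3, and 0 were lower, beside 1.68% and 1.72% of all genes. Apoc3 was at that threshold in 13 of 16 alternative fits, and not with no shared variance prior, without narrow 3 or without wide 1. Their median difference was -0.0045, with Apof, a regulator of lipid transfer, at -0.10 ± 0.061 and Apol10b at 0.069 ± 0.048. Of 14 genes of particle assembly and export from the endoplasmic reticulum, 0 passed the adjusted threshold, and their median was 0.0013. At an unadjusted p under 0.05, 0 were higher and 1 lower in narrow pools, beside 1.68% and 1.72% of all genes. With the replicate block Cideb was higher and Apobec1 lower at that threshold, beside 7.25% of all genes. In the arrays numbered 2 and 3 Cideb was higher and 0 were lower, beside 4.58% of all genes. Apobec1, which edits the Apob messenger RNA, had 6.38, 6.37 and 6.43 in narrow and 6.47, 6.54 and 6.47 in wide pools, a difference of -0.10 ± 0.042 (95% interval -0.20 to -0.0032, limma adjusted p = 1.00). It was at an unadjusted p under 0.05 in 5 of 14 alternative fits, and not in 5 of the 6 that left out 1 array, in the arrays numbered 2 and 3, with either other scaling or with a trended, robust prior. Dgat1, which makes triglyceride, had -0.081 ± 0.041 and Cideb, which helps to enlarge particles, 0.14 ± 0.075. All narrow pools lay below all wide pools for Apobec1 and Dgat1, as for 3.54% of all genes. Of 11 genes of lipolysis and particle remodelling, 0 passed at either threshold, and their median was 0.018, with the lipase gene Lpl at 0.083 ± 0.051, the lipase maturation factor Lmf1 at 0.066 ± 0.062 and the lipase anchor Gpihbp1 at -0.066 ± 0.064. In the arrays numbered 2 and 3 Lpl stood at 0.13 and Lmf1 at 0.10. On leaving out 1 array the median ran from -0.032 to 0.055 in this list, from -0.032 to 0.025 in the other apolipoproteins and from -0.013 to 0.013 in the assembly genes, so each of these medians changed sign.

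Among 23 measured transcriptional regulators of apolipoprotein genes, the median difference was -0.0093, with -0.058 to 0.052 on leaving out 1 array. Of these regulators 0 passed the adjusted threshold. At an unadjusted p under 0.05, 1 was higher and 0 lower in narrow pools, beside 1.68% and 1.72% of all genes. With the replicate block these counts were 3, namely Foxa1, Foxa2 and Cebpa, and 1, namely Onecut1, beside 7.25% of all genes. In the arrays numbered 2 and 3 they were 2, Foxa1 and Foxa2, and 0, beside 4.58% of all genes. Foxa1, a forkhead factor of endoderm, had 9.32, 9.35 and 9.31 in narrow and 9.16, 9.13 and 9.21 in wide pools. All narrow pools lay above all wide pools, as for 4.17% of all genes. The difference of Foxa1 was 0.16 ± 0.041, a 1.12-fold ratio (95% interval 0.065 to 0.25, limma adjusted p = 1.00), or 0.16 in the arrays numbered 2 and 3. Its relative Foxa2 had 0.13 ± 0.062, and Onecut1, a homeodomain factor of liver, -0.12 ± 0.054. Hnf4a, the nuclear receptor that activates many apolipoprotein genes, is named here after its values were seen. It had 11.89, 11.95 and 11.93 in narrow and 12.00, 11.99 and 11.97 in wide pools. All narrow pools lay below all wide pools, as for 3.54% of all genes. The difference of Hnf4a was -0.064 ± 0.040 (95% interval -0.16 to 0.027).

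Markers of cells that make or hold apolipoproteins were read beside these values. The 20 visceral endoderm markers had a median difference of 0.0046, with 10 positive and 10 negative. At an unadjusted p under 0.05 the transferrin gene Trf was higher in narrow pools, by 0.18 ± 0.048, and 0 were lower, beside 1.68% and 1.72% of all genes. With the replicate block Trf, Rbp4 and Foxa2 were higher at that threshold and 0 were lower, beside 7.25% of all genes. In the arrays numbered 2 and 3 Trf and Foxa2 were higher and Fga lower, beside 4.58% of all genes. The mean deviation of the 20 markers per array ran from -0.0056 to 0.038 in narrow and from -0.034 to 0.018 in wide pools. The 10 macrophage markers had a median of -0.019, with 0 at an unadjusted p under 0.05, beside 3.40% of all genes. With the block 1 was higher at that threshold, Mrc1, beside 7.25% of all genes. In the arrays numbered 2 and 3 Mrc1 was higher and Lyz2 lower in narrow pools at that threshold, beside 4.58% of all genes. The mean deviation of the 10 markers ran from -0.044 to -0.00087 in narrow and from -0.083 to 0.13 in wide pools. The last was in wide 3, where the lysozyme gene Lyz2 stood at 7.50, against 6.05 to 6.58 on the other arrays. Their part in the values of the apolipoprotein genes was not tested. No background level came with the arrays, so it cannot be said which of these markers were absent. Whether the pools held any macrophages was not tested.

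**Figure D4:**
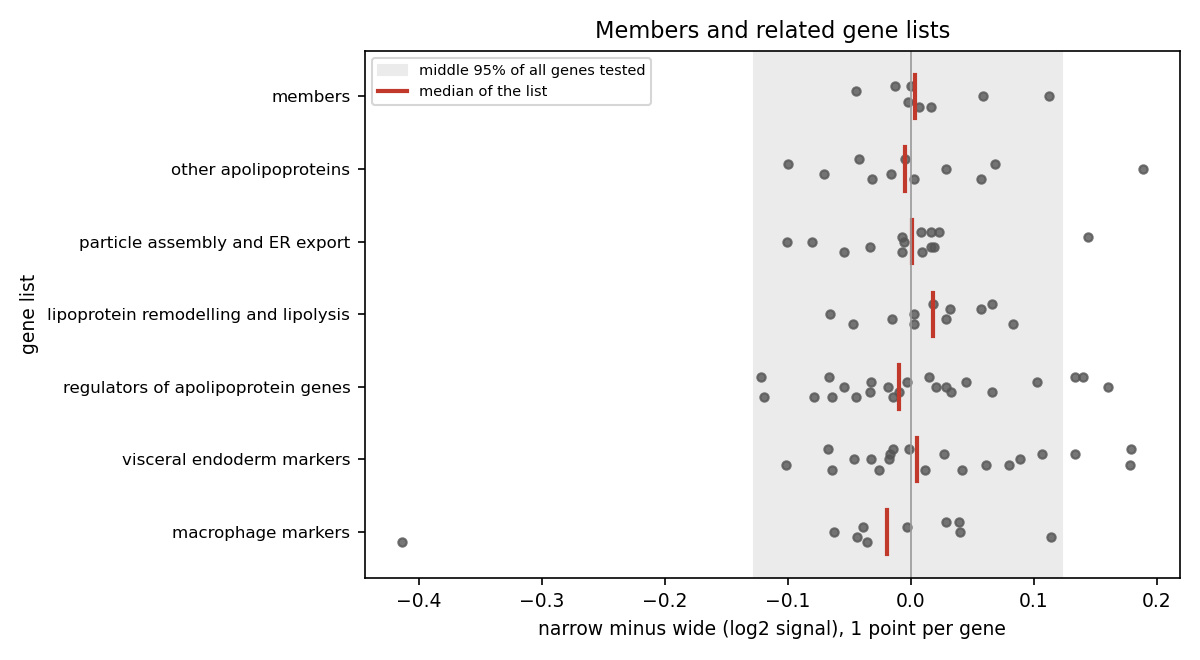
Difference between narrow and wide cavities of each measured gene (x axis, log2 signal, 1 point per gene) in the set and in 6 lists (y axis), with the median of each list as a red line and the middle 95% of all genes tested, -0.13 to 0.12, shaded. All 8 members lie in the shaded range, and every median lies between -0.019 and 0.018.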

How the data were processed

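Labelled total RNA of 6 embryo pools was hybridized to Affymetrix Mouse Gene 1.0 ST arrays, per the labels. The deposited values are log2 signals, read as such from their range. Their nearly equal medians were taken as a sign of scaling between arrays before deposit, which no source states. The sources used here do not give the background correction, the normalization or the software. Scaling of this kind would remove changes in total RNA. Of 28853 features, 21789 named 1 gene in the platform annotation, covering 19938 genes, and the feature with the highest mean was kept per gene. The 8 members found had 1 feature each.

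Groups were compared with limma 3.58.1 in R 4.3.3 (lmFit and eBayes, two-sided, no covariate, no filter on dim genes), with Benjamini-Hochberg adjustment over all genes, a threshold of 0.05 and 95% intervals from the fit. The fit was tested on simulated data. Deviations from group means correlated at 0.516, 0.176 and 0.272 between arrays numbered 1, 2 and 3, all above 0.1. Same-numbered arrays were therefore treated as pairs, which no label states, in the replicate block and in counts over pairs only. Deviations within a group cancel out, so the arrays numbered 1, which stood apart, also bear on the other correlations. Arrays with different numbers were not compared in this way, so the pairing remains an assumption. Printed standard errors and intervals are without the block. Alternatives were 2 other scalings, 2 signal filters, averaged features, every feature, 2 variance models, the replicate block, the arrays numbered 2 and 3, and each array left out.

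The members and lists were chosen with earlier results of these data known. All members were named, and from each list the 3 genes with the smallest p, with genes next to a member. Genes of the marker lists are named only as given in the text. Gene order and promoter windows came from RefSeq tables of GRCm38.p6, and the motifs were chosen after the fits. The number of arrays limits the precision.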

Additional observations from a re-analysis of the deposited data

How the results depend on the processing

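No gene passed the adjusted threshold under any of the 16 alternatives by limma, while genes at an unadjusted p under 0.05 numbered 678, 384 among the 9969 genes above the 50th percentile of signal, 1446 with the replicate block and 497 to 990 on leaving out 1 array. The block changed no call on a member. Of 128 member values, 111 kept their sign and 17 changed it, none of them called. Outside the fits that leave out 1 array these were Mttp at -0.0031 with quantile normalization, Apob at 0.0021 with arrays centred on their median, and, in the arrays numbered 2 and 3, Apoa4 at 0.0033, Apob at 0.018 and Mttp at -0.035. Leaving out each array gave ranges of -0.0060 to 0.039 for Apoa1, -0.046 to 0.023 for Apoa4, -0.041 to 0.037 for Apob, 0.068 to 0.17 for Apoa2, 0.028 to 0.096 for Apom, -0.079 to 0.011 for Apoc1, -0.015 to 0.030 for Apoe and -0.037 to 0.039 for Mttp. Members with a positive difference numbered 5, and 3 to 7 on leaving out 1 array, with 3 when this was narrow 2. Members at an unadjusted p under 0.05 numbered 0, then 0 to 1 on leaving out 1 array and 1 in the arrays numbered 2 and 3, each time Apoa2. The median of the members ran from -0.0034 to 0.031 over all alternatives. Above the 50th percentile of signal the median of the other apolipoproteins was 0.096. The 184 values of the 12 list genes named by smallest p kept their sign, Apoc3 from 0.13 to 0.24 and Foxa1 from 0.14 to 0.18. For the other list and marker genes, calls were read with the replicate block and in the arrays numbered 2 and 3 only. Their values were not followed under the alternatives one by one. Why these values moved was not tested.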
